A study of Mus musculus with 9 samples.

Results

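The genes described here are 46 mouse genes that copy DNA or supply and regulate that copying in S phase. They were taken by symbol from a fixed list: the estimated counts of all transcripts carrying a listed symbol were summed, so 46 of the 52459 gene symbols in the RNA-Seq files were followed. The samples were NMuMG cells, an immortalized mouse mammary gland line, stably transfected with a pBICEP vector of the CMV type and kept as G418-selected pools. 3 libraries came from mock cells carrying the empty vector, 3 from cells overexpressing EPR (BC030870, a long noncoding RNA that also encodes a small peptide) and 3 from cells overexpressing EPRSTOPE, a point mutant of EPR that cannot make the peptide. All cells were grown in medium with serum, the labels name no further treatment, and the study's methods call the libraries of a condition biological triplicates. Whether each sequenced library was a separate transfectant pool is not stated there or in the labels, so the p-values measure the spread between these libraries, which may be in part technical.

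Before S phase, the origin recognition complex, Cdc6 and Cdt1 load the MCM helicase onto DNA, a step called licensing. Mcm10, Cdc45 and the GINS complex turn the loaded helicase into a moving fork, where primase and the polymerases alpha, delta and epsilon make new strands, the PCNA clamp and its RFC loader hold the polymerases in place, and Fen1 and Lig1 join the lagging strand pieces. Many of these genes are transcribed around the G1/S transition under the E2F family of transcription factors, and their mRNA levels are widely used as a sign of how many cells in a culture are cycling.

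The libraries held 5972457 to 11876435 estimated counts, so that 3 counts correspond to 0.253 to 0.502 CPM, the counts scaled to a total of 1000000 per library. All 46 genes reached 1 CPM in all 9 libraries and were tested. The lowest value was 22 counts, for *E2f2* in a mock library, and the lowest among the other 45 genes was 56 counts. EPR RNA itself was at 0, 0 and 0.163 CPM in mock cells, at 23.6, 27.0 and 23.9 CPM in EPR cells and at 4.74, 4.17 and 3.80 CPM in EPRSTOPE cells. EPR and EPRSTOPE cells thus differed in the amount of EPR RNA as well as in the peptide. They were also separately transfected and selected populations, and these differences cannot be told apart here. On the log2 scale, the median difference between EPR and EPRSTOPE cells was 0.55 for tested genes of chromosome 19 and −0.25 for those of chromosome 12. For the other chromosomes it lay between −0.13 and 0.06. The part of such population differences in the direct comparison was not tested. Of the 12 epithelial markers, 5 or 6 were at 0 in each mock library, including *Epcam*, against 1 to 3 in EPR and 4 or 5 in EPRSTOPE libraries, and *Cdh1* was at 0.311 to 1.16 CPM there against 381 CPM or more in the other libraries, although the keratins *Krt8* and *Krt18* were abundant in all libraries. The summed level of the epithelial list was 3693 to 4159 CPM in mock, 9503 to 10611 CPM in EPR and 10688 to 11025 CPM in EPRSTOPE libraries, and that of the 12 mesenchymal markers was 4141 to 4308, 2226 to 2454 and 4066 to 4391 CPM. Most of the epithelial sum was *Krt8* and *Krt18*, whose mean CPM was highest in EPRSTOPE cells. That of *Cdh1*, *Epcam*, *Krt19*, *Krt7* and *Ocln* was highest in EPR cells. Most of the mesenchymal sum was *Vim*, which lay above mock in all EPRSTOPE libraries. *Fn1*, *Cdh2*, *Twist2* and *Zeb2* lay below mock in all of them, and *Zeb1* and *Fstl1* overlapped with mock. The 5 leukocyte markers summed to at most 1.86 CPM with *Adgre1* at 0 in all libraries, and the 4 endothelial markers to 11.03 to 16.7 CPM, most of it *Pecam1*. The part of these marker differences in the results was not tested.

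E2F proteins bind a short GC-rich element, and the promoters of the 46 genes were searched for it because the element is the best known feature these genes share. RefSeq promoters (GRCm38.p6, 250 bases before to 50 bases after the start site) were found for 39 of the 46 genes. *Mcm4*, *Gins1*, *Gins2*, *Gins4*, *Rfc2*, *Prim2* and *Pole* had no entry. The words TTTCCCGC, TTTCGCGC, TTTGCCGC and TTTGGCGC were searched on both strands, and they may overlap each other. At least 1 of them was present in 16 of 39 genes (41%), against 2.6% of all 27025 genes with a promoter entry. In 5 genes a word lay upstream of the start site, with 21 bases on either side, and outside the exons of Gencode M21. These are shown because they cover *Mcm5*, *Mcm6* and *Uhrf1*, which fell with EPR and were not called with EPRSTOPE, *Pola1*, which fell in both, and *Cdc6*, which moved in opposite directions. They are written 5′ to 3′ along the gene, with the E2F-type words in capitals. The first *Mcm6* stretch is chr1:128359783-128359836 and the second chr1:128359724-128359773, both on the minus strand and between genes. That of *Mcm5* is chr8:75109335-75109388, plus strand, between genes, and that of *Pola1* is chrX:93632265-93632314, minus strand, between genes. That of *Uhrf1* is chr17:56304107-56304156 and that of *Cdc6* chr11:98907992-98908041, both on the plus strand and within an intron of a longer Gencode model of the same gene. A match of letters is a description of the sequence and does not show that a factor binds there.
Mcm6, first: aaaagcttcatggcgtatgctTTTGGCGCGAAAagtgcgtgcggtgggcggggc
Mcm6, second: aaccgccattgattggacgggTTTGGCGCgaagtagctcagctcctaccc
Mcm5: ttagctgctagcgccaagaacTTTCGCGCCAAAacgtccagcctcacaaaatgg
Uhrf1: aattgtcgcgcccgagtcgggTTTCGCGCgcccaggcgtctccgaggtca
Pola1: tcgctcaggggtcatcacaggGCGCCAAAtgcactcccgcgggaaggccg
Cdc6: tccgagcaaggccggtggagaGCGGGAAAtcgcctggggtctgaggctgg

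The 46 genes together took 0.474% ± 0.00527 of all counts in mock cells, 0.228% ± 0.00124 in EPR cells and 0.351% ± 0.0113 in EPRSTOPE cells (SD, n = 3 each). Their summed level, in CPM after TMM scaling between libraries, was 4540 ± 85.5 in mock, 2315 ± 32.2 with EPR and 3658 ± 107 with EPRSTOPE. The summed TPM, which is per transcript length, was 2613 ± 112, 1122 ± 75.5 and 1805 ± 151. The 3 conditions did not overlap, and EPR cells were the lowest. In RNA from whole cultures, fewer cells in S phase and less of each mRNA per cell cannot be told apart. The heatmap of all 46 genes shows each gene in each library.

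**Figure D1:**
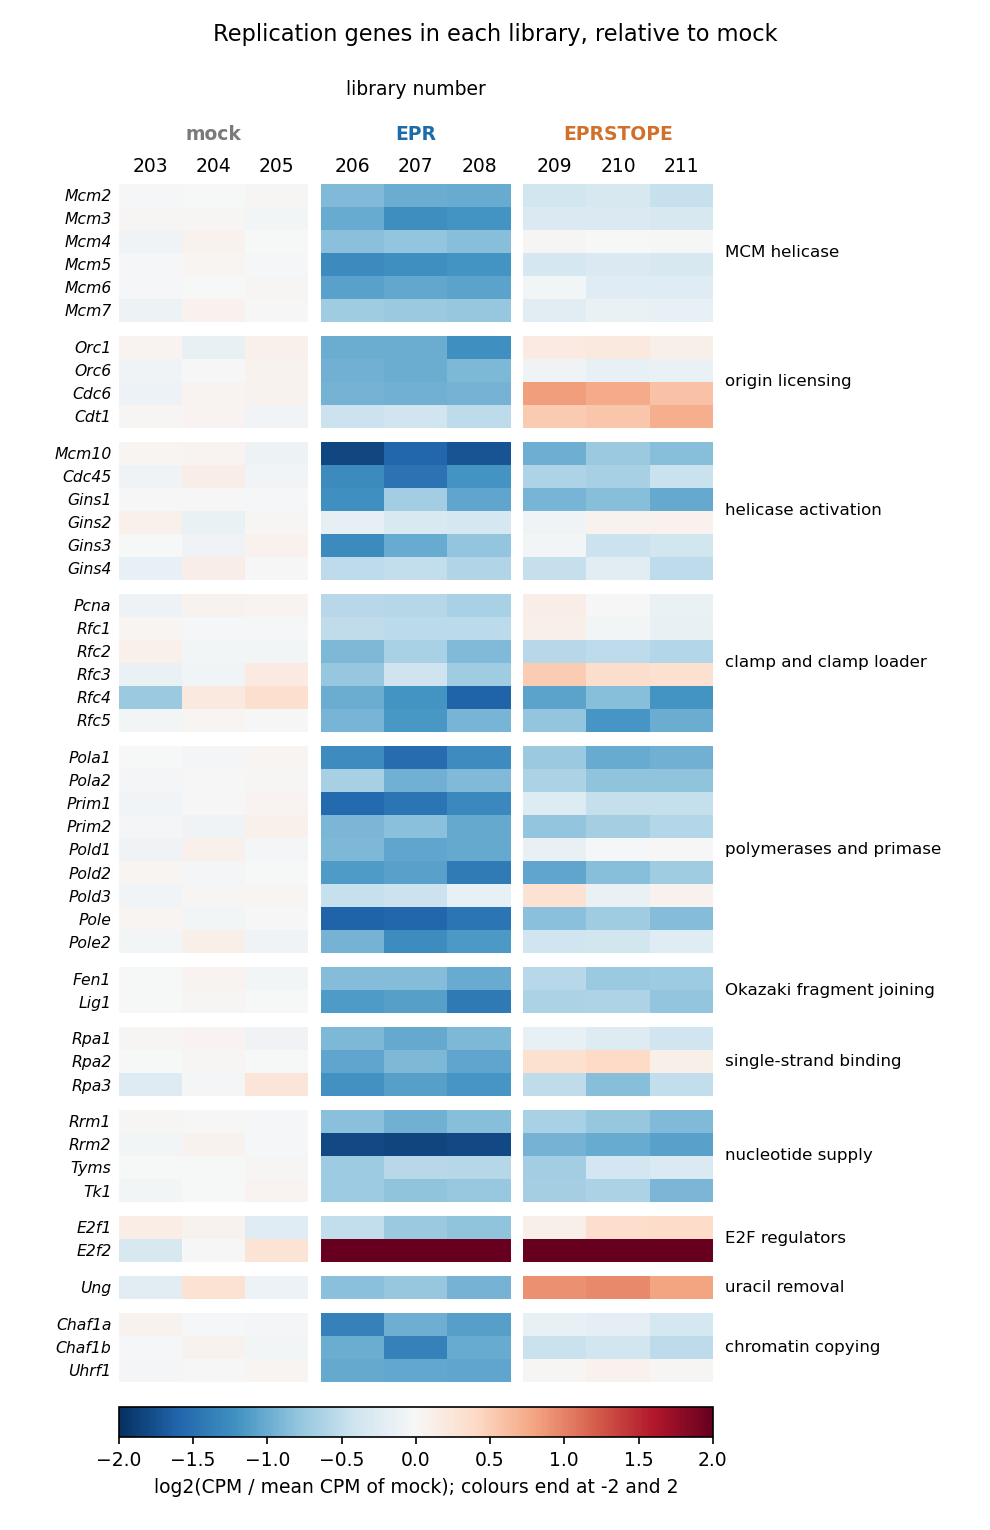
Each row is 1 of the 46 genes, grouped by role, and each column 1 library, with its library number. Colour gives log2 of the gene's CPM over its mean CPM in mock cells, blue for lower and red for higher, and the colours end at −2 and 2. The EPR columns are blue in 45 rows, and *E2f2* is red in both overexpressing conditions. The EPRSTOPE columns are paler, with red rows at *Cdc6*, *Cdt1* and *Ung*. Weaker red is seen there in others, among them *Rfc3*, *E2f1*, *Rpa2* and *Orc1*.

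Whether EPR overexpression changes the replication genes was asked first, by comparing EPR with mock cells. 42 of the 46 genes fell, 1 rose and 3 did not pass the test, edgeR's quasi-likelihood fit with a Benjamini-Hochberg adjusted p below 0.01 and a log2 fold change beyond 0.5. Over all 15370 tested genes, 12.9% were called lower and 15.2% higher. The median log2 fold change of the 46 genes was −0.97, a level of 0.510 times that in mock cells, against a median of −0.01 over all tested genes. In 45 of the 46 genes all 3 EPR libraries were below all 3 mock libraries, which held for 28.9% of all tested genes. *Rrm2* was lowest relative to mock, *E2f2* was the single gene that rose, and *Cdt1*, *Pold3* and *Gins2* were the genes without a call, at −0.45, −0.35 and −0.28.

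The second comparison, EPRSTOPE with mock cells, gave a split picture. 17 genes fell, 4 rose and 25 did not pass the test, against a background of 12.4% called lower and 15.6% called higher. The median log2 fold change was −0.33, with −0.04 over all tested genes. All 3 EPRSTOPE libraries lay below all 3 mock libraries in 30 of the 46 genes and in 28.3% of all tested genes. The genes that rose were *E2f2*, *Ung*, *Cdc6* and *Cdt1*. Both comparisons used the same mock libraries, so their values are given side by side, and EPR cells were also tested directly against EPRSTOPE cells.

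In that direct comparison 28 genes were lower in EPR than in EPRSTOPE cells, 0 were higher and 18 did not pass the test. The background was 6.35% called lower and 6.86% called higher, and DESeq2 and limma with voom also called 0 genes higher. No gene was higher at an unadjusted p under 0.05 in edgeR (count 0). The median log2 fold change was −0.66, and all 46 values were below 0, from −1.75 for *Ung* to −0.02 for *Rfc5* and *Tk1*. In 37 of the 46 genes every EPR library lay below every EPRSTOPE library, which held for 22.2% of all tested genes.

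**Figure D2:**
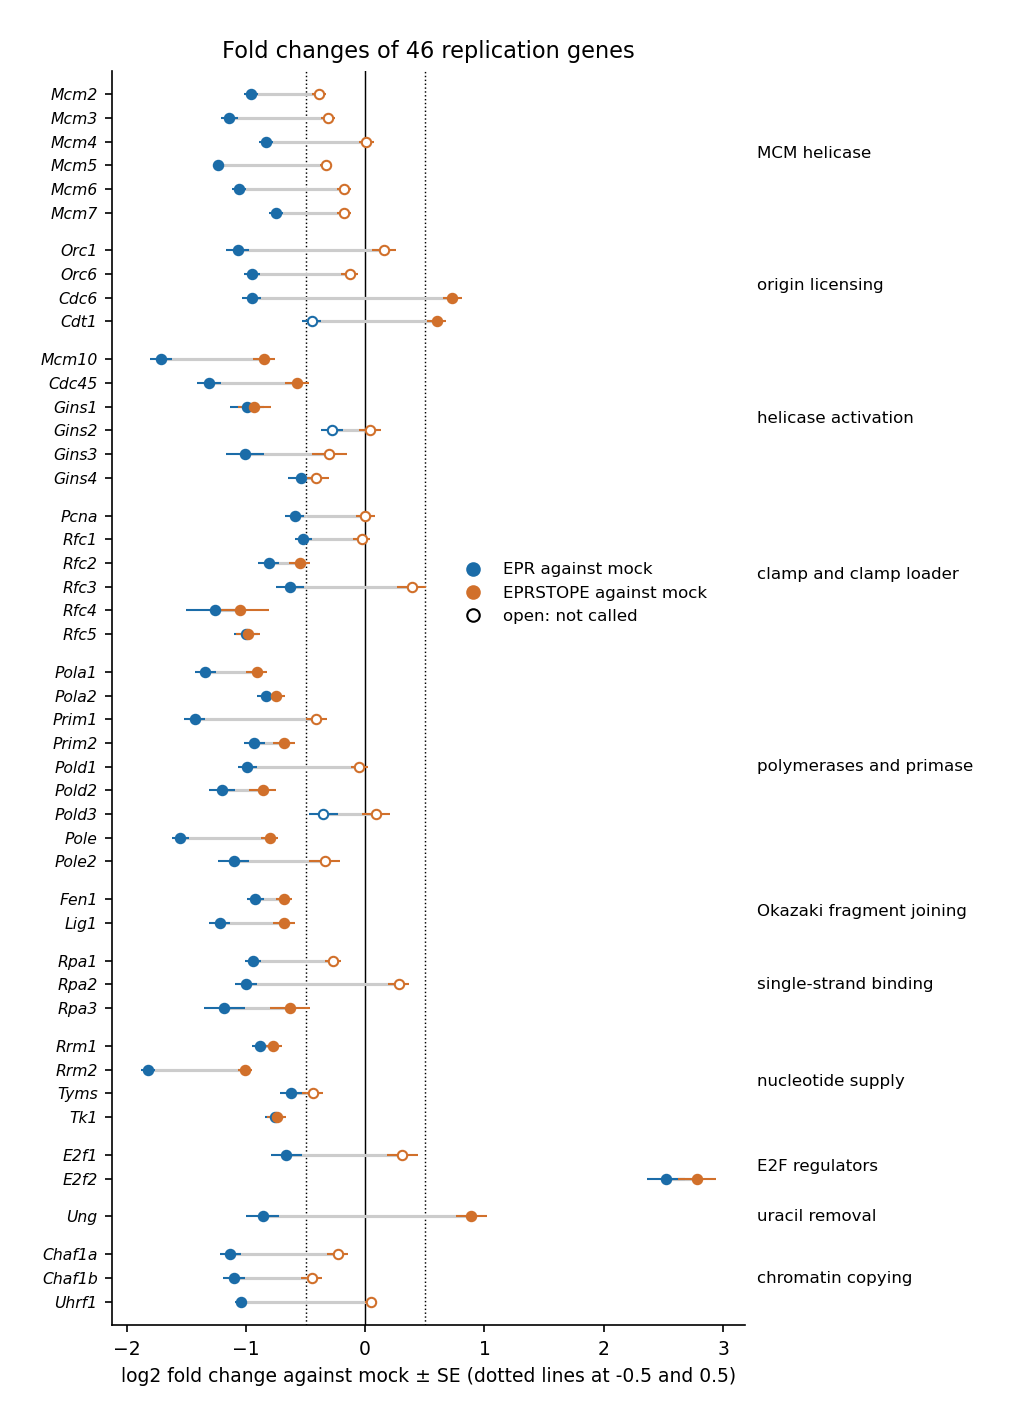
For each of the 46 genes, the log2 fold change against mock is shown with its standard error for EPR (blue) and EPRSTOPE (orange), and open symbols did not pass the test. The blue points lie left of the dotted line at −0.5 in 42 genes, and the orange points do so with a call in 17.

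The MCM helicase, a ring of 6 related subunits, fell with EPR in all its subunits, although *Mcm2* and *Mcm4* lost this call with counts rebuilt from TPM and length, as *Mcm2* did in the direct comparison. Its 6 genes had log2 fold changes from −1.23 (*Mcm5*) to −0.75 (*Mcm7*) with EPR, and from −0.39 (*Mcm2*) to 0.01 (*Mcm4*) with EPRSTOPE, where 0 of 6 were called by edgeR. *Mcm2*, *Mcm3* and *Mcm5* passed the p threshold there (adjusted p = 0.00015, 0.0016 and 0.00028) and missed the fold threshold, and the EPRSTOPE libraries of all but *Mcm4* lay below all mock libraries. In the direct comparison 6 of 6 were lower in EPR cells, from −0.90 to −0.57. *Mcm7* (ENSMUSG00000029730.16, chr5:138164583-138172422 on GRCm38), the subunit with the highest TPM of the group, stood at 193, 218 and 208 CPM in mock, 126, 123 and 120.3 CPM in EPR and 177, 188 and 184 CPM in EPRSTOPE libraries. Its EPR libraries lay apart from all others, with a log2 fold change of −0.75 ± 0.06 (SE, adjusted p = 7.6e-07, edgeR) against mock, while EPRSTOPE gave −0.18 ± 0.06 (adjusted p = 0.028). In TPM the 6 subunits summed to 529 ± 41.3 in mock cells (SD, n = 3), to 243 ± 10.3 with EPR and to 405 ± 29.9 with EPRSTOPE.

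Of the roles with more than 1 gene, licensing had the widest gap between EPR and EPRSTOPE, with a median direct log2 fold change of −1.14. *Cdc6* (chr11:98907801-98923940), the ATPase that helps to load the MCM ring, was at 49.9, 56.1 and 56.7 CPM in mock libraries. It was at 28.2, 27.9 and 28.2 CPM in EPR libraries and at 96.9, 92.0 and 81.2 CPM in EPRSTOPE libraries. The 3 conditions did not overlap, and mock lay in the middle. *Cdc6* fell by 0.95 ± 0.08 on the log2 scale with EPR (adjusted p = 1.5e-06) and rose by 0.73 ± 0.08 with EPRSTOPE (adjusted p = 9.9e-06). The direct difference was −1.68 ± 0.08, or 3.199-fold (adjusted p = 4.5e-08, all from edgeR). *Cdt1*, its partner in loading, rose with EPRSTOPE to 73.4, 74.8 and 84.7 CPM from 51.7, 53.2 and 48.4 CPM in mock, a log2 fold change of 0.60 ± 0.08, and stood at 38.1, 38.6 and 35.5 CPM in EPR libraries. The *Cdt1* call with EPRSTOPE was lost with library totals alone and with counts rebuilt from TPM (0.45 to 0.68 over all alternatives), and with EPR *Cdt1* was called lower with library totals alone and with protein-coding transcripts alone (−0.61 to −0.35 over all alternatives). The origin recognition subunits *Orc1* and *Orc6* fell with EPR (−1.07 and −0.95) and were not called with EPRSTOPE (0.16 and −0.13). *Orc6* was at 59.7, 63.4 and 66.2 CPM in mock, 32.6, 31.6 and 33.8 CPM in EPR and 59.1, 56.2 and 57.5 CPM in EPRSTOPE libraries. All 4 licensing genes were lower in EPR than in EPRSTOPE cells, from −1.68 to −0.82.

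**Figure D3:**
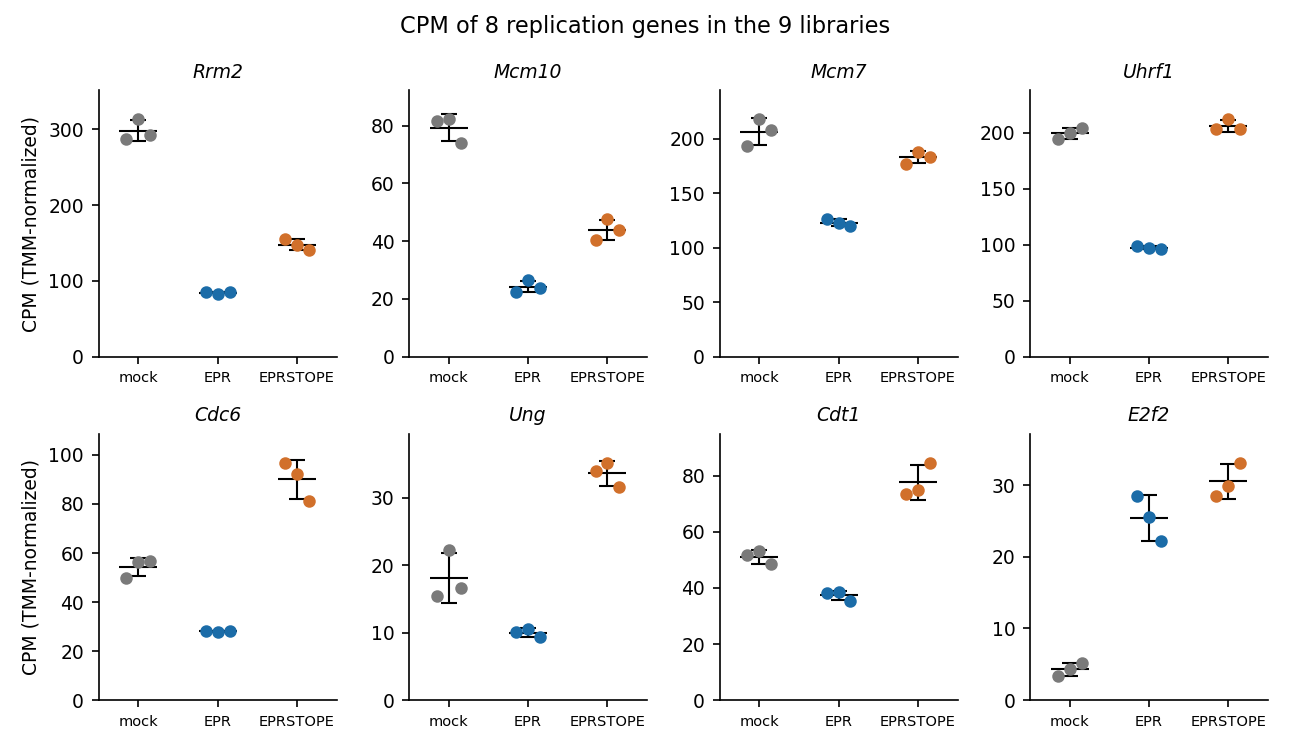
TMM-normalized CPM of 8 genes in the 9 libraries, each axis starting at 0, with points for libraries, horizontal bars for means and error bars for SD. *Rrm2* and *Mcm10* step down from mock to EPRSTOPE to EPR, *Mcm7* and *Uhrf1* are lowest with EPR, where *Mcm7* also lies slightly below mock with EPRSTOPE, *Cdc6*, *Ung* and *Cdt1* lie above mock with EPRSTOPE and below it with EPR, and *E2f2* is high in both.

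Among the genes that activate the helicase, *Mcm10*, which the origin needs to fire, changed most with EPR. It was at 81.6, 82.3 and 73.9 CPM in mock, 22.4, 26.4 and 23.9 CPM in EPR and 40.3, 47.5 and 43.7 CPM in EPRSTOPE libraries. *Mcm10* (chr2:4989714-5012791) fell by 1.71 ± 0.09 with EPR (3.27-fold, adjusted p = 1.8e-08) and by 0.85 ± 0.09 with EPRSTOPE (adjusted p = 5.7e-06), and the direct difference of −0.86 ± 0.09 passed the test. *Cdc45*, part of the moving helicase, followed the same order (−1.31 with EPR, −0.57 with EPRSTOPE). Its call with EPRSTOPE was lost with counts rebuilt from TPM and length (−0.69 to −0.51 over all alternatives). The 4 GINS subunits did not move as one. *Gins1* fell by 0.99 with EPR and by 0.93 with EPRSTOPE, and *Gins2* was not called in either. *Gins3* fell with EPR (−1.01) and was not called with EPRSTOPE (−0.30). Its call with EPR was lost with counts rebuilt from TPM and length (−1.13 to −0.46 over all alternatives). Its direct call (−0.72) was lost in 7 of 20 alternatives (−0.83 to −0.36 over all alternatives). Among these were the fits without EPR library 206 or 207 and without EPRSTOPE library 209 or 211. *Gins4* was near the thresholds in both, at −0.54 with EPR and called, and at −0.41 with EPRSTOPE and not called, with a direct difference of −0.14 ± 0.11 that did not pass the test. The *Gins4* call with EPR was lost without mock library 204 and with counts rebuilt from TPM, and a call with EPRSTOPE was gained without EPRSTOPE library 210 and with library totals alone. *Gins2*, the one with the highest TPM of this group over all libraries, was at 35.4, 29.97 and 33.5 CPM in mock, 29.1, 26.4 and 26.0 CPM in EPR and 31.2, 34.7 and 35.1 CPM in EPRSTOPE libraries. With counts rebuilt from TPM and length, *Gins2* reached −0.89 with EPR and was called lower.

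*Pcna* (chr2:132249162-132253314), the sliding clamp, had the highest TPM of all 46 genes in every condition, at 239.6 ± 5.55 in mock, 139 ± 10.0 with EPR and 204 ± 30.7 with EPRSTOPE (SD, n = 3). Its CPM was 226, 258 and 255 in mock, 167, 165 and 156 in EPR and 269, 247 and 225 in EPRSTOPE libraries. EPR libraries lay apart below the rest (−0.59 ± 0.08, adjusted p = 4e-05), and EPRSTOPE overlapped with mock (0.00 ± 0.08, adjusted p = 0.97). The 5 RFC subunits that load the clamp all fell with EPR, from −1.26 (*Rfc4*) to −0.52 (*Rfc1*), and *Rfc2*, *Rfc4* and *Rfc5* also fell with EPRSTOPE (−0.55, −1.05 and −0.98). Both *Rfc2* calls were lost with protein-coding transcripts alone. Such transcripts held on average 18.3% of the *Rfc2* counts in mock, 19.3% in EPR and 20.5% in EPRSTOPE libraries. Over all alternatives *Rfc2* lay at −0.94 to −0.76 with EPR and at −0.67 to −0.45 with EPRSTOPE. *Rfc4* was at 17.1, 32.7 and 35.9 CPM in mock, 14.3, 12.5 and 9.35 CPM in EPR and 13.6, 15.8 and 12.4 CPM in EPRSTOPE libraries. Its mock library 203 lay near the other conditions, and its call with EPRSTOPE was lost without mock library 204 (−0.96) or 205 (−0.86), without EPRSTOPE library 209 (−1.03) or 211 (−0.97) and with counts rebuilt from TPM (−0.87). The *Rfc4* log2 fold changes over its 20 alternatives lay between −1.30 and −0.86. *Rfc3* fell with EPR (−0.63) and was not called with EPRSTOPE (0.39), but when its single protein-coding transcript alone was counted the values were 7.73 with EPR and 8.48 with EPRSTOPE, both called higher. That transcript had 1.5, 0 and 0 counts in the mock libraries, so these *Rfc3* values are no measure of size.

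The polymerases and primase gave 8 of 9 genes lower with EPR and 5 of 9 lower with EPRSTOPE. *Pole*, the catalytic subunit of the leading strand polymerase epsilon, fell by 1.55 with EPR and by 0.80 with EPRSTOPE, and *Pola1*, the catalytic subunit of polymerase alpha, fell by 1.34 and 0.91. *Pola2* (−0.83 and −0.75), *Prim2* (−0.93 and −0.68) and *Pold2* (−1.20 and −0.86) fell in both. With counts rebuilt from TPM and length, *Pola2* lost both calls, and *Prim2* and *Pola1* lost the call with EPRSTOPE. Over all alternatives *Pola2* lay at −0.92 to −0.61 with EPR and at −0.87 to −0.51 with EPRSTOPE. *Prim1*, the primase catalytic subunit, fell with EPR (−1.43) and was not called with EPRSTOPE (−0.41), and neither were *Pold1* (−0.05), *Pole2* (−0.34) and *Pold3* (0.09). With EPRSTOPE *Prim1* passed the p threshold (adjusted p = 0.0018, edgeR) and missed the fold threshold. It was called lower there with library totals alone and with protein-coding transcripts alone. *Pold2*, an accessory subunit of polymerase delta with the highest TPM of the group over all libraries (in EPRSTOPE cells *Prim1* was above it), was at 55.3, 52.3 and 53.4 CPM in mock, 24.5, 25.4 and 20.2 CPM in EPR and 25.7, 29.7 and 32.9 CPM in EPRSTOPE libraries. Both overexpressing conditions lay below mock for *Pold2*, and their direct difference did not pass the test (−0.34 ± 0.11, adjusted p = 0.036). 4 of the 9 genes were lower in EPR than in EPRSTOPE cells.

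*Fen1* (chr19:10199132-10204169), the nuclease that trims lagging strand flaps, was at 122, 128 and 118 CPM in mock, 67.3, 66.9 and 60.9 CPM in EPR and 83.3, 73.0 and 74.5 CPM in EPRSTOPE libraries. It fell by 0.92 ± 0.07 with EPR and by 0.68 ± 0.07 with EPRSTOPE. The *Fen1* call with EPRSTOPE was lost with counts rebuilt from TPM and length (−0.80 to −0.45 over all alternatives). *Fen1* and *Pola2* lie on chromosome 19, whose 477 tested genes had a median log2 fold change of −0.55 with EPRSTOPE and −0.02 with EPR, and the part of that shift in both genes was not tested. Without them 15 of 44 genes fell with EPRSTOPE. The ligase *Lig1* fell by 1.22 and 0.68.

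Replication protein A coats single-stranded DNA at the fork. All 3 subunits fell with EPR, *Rpa1* by 0.94, *Rpa2* by 1.0 and *Rpa3* by 1.18, and of these *Rpa3* fell with EPRSTOPE (−0.63), a call held in 10 of 20 alternatives and lost without any 1 library other than mock library 203 (log2 fold changes of −0.78 to −0.49 over all alternatives). *Rpa2* was at 42.6, 43.3 and 42.5 CPM in mock, 20.7, 22.9 and 20.7 CPM in EPR and 53.4, 56.5 and 46.3 CPM in EPRSTOPE libraries. Its EPRSTOPE libraries lay above mock without passing the test (0.28 ± 0.09, adjusted p = 0.018), and the direct difference was −1.28 ± 0.09 (adjusted p = 8.4e-07). *Rpa1*, the large subunit, was at 179, 183 and 166 CPM in mock, 94.4, 86.6 and 94.2 CPM in EPR and 157, 147 and 134 CPM in EPRSTOPE libraries, with −0.27 ± 0.07 for EPRSTOPE (adjusted p = 0.0077).

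Of the 4 genes of deoxynucleotide supply, 4 fell with EPR and 3 with EPRSTOPE. *Rrm2* (chr12:24708241-24714146), the S-phase regulated subunit of ribonucleotide reductase, was at 288, 314 and 293 CPM in mock, 85.5, 83.2 and 85.3 CPM in EPR and 155, 148 and 141 CPM in EPRSTOPE libraries. It fell 3.52-fold with EPR (−1.82 ± 0.06, adjusted p = 4.1e-10) and 2.02-fold with EPRSTOPE (−1.01 ± 0.06, adjusted p = 4.2e-08), and the direct difference was −0.80 ± 0.06 (adjusted p = 1.3e-06). The 586 tested genes of chromosome 12 had a median of −0.27 with EPR and −0.08 with EPRSTOPE. *Rrm1*, the large subunit, and *Tk1*, thymidine kinase, fell in both (−0.88 and −0.77 for *Rrm1*, −0.76 and −0.74 for *Tk1*), and their direct differences of −0.11 ± 0.07 and −0.02 ± 0.08 did not pass the test. The *Tk1* call with EPR was lost with protein-coding transcripts alone, which held 36.4 to 65.9% of its counts. *Tyms*, thymidylate synthase, fell with EPR (−0.62), a call lost with protein-coding transcripts alone, and was not called with EPRSTOPE (−0.44). With EPRSTOPE *Tyms* passed the p threshold (adjusted p = 0.0016, edgeR) and missed the fold threshold. It was called lower there with library totals alone and without EPRSTOPE library 211. Its direct difference of −0.18 ± 0.09 did not pass the test (adjusted p = 0.17, edgeR), and the libraries overlapped. Per length, *Rrm2* was above *Rrm1* in mock cells (204 ± 10.7 against 162 ± 20.4 TPM) and below it in EPR cells (47.7 ± 3.44 against 61.0 ± 2.61 TPM).

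The transcription factors *E2f1* and *E2f2*, both activators of the E2F family, went opposite ways with EPR. *E2f2* (chr4:136172394-136196057) was at 3.42, 4.33 and 5.21 CPM in mock, 28.5, 25.5 and 22.1 CPM in EPR and 28.5, 29.9 and 33.1 CPM in EPRSTOPE libraries. It rose 5.72-fold with EPR (2.52 ± 0.16, adjusted p = 8.4e-08) and 6.88-fold with EPRSTOPE (2.78 ± 0.16, adjusted p = 3e-08), with libraries of both conditions far above mock and overlapping each other. *E2f1* was at 25.9, 24.7 and 19.8 CPM in mock, 16.7, 14.02 and 13.5 CPM in EPR and 25.4, 30.4 and 30.7 CPM in EPRSTOPE libraries. *E2f1* fell with EPR (−0.66 ± 0.13, adjusted p = 0.0014) and was not called with EPRSTOPE (0.31 ± 0.13). The *E2f1* call with EPR was lost with counts rebuilt from TPM and length (−0.79 to −0.43 over all alternatives). In TPM *E2f2* was the lowest of the 46 genes in mock cells (1.04 ± 0.459) and stood at 7.07 ± 0.979 in EPR cells beside 4.69 ± 0.617 for *E2f1*.

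*Ung* (chr5:114130386-114139323), the glycosylase that removes uracil from newly made DNA, had the largest direct difference of the 46 genes. It was at 15.4, 22.3 and 16.6 CPM in mock, 10.1, 10.6 and 9.35 CPM in EPR and 34.1, 35.2 and 31.6 CPM in EPRSTOPE libraries. The 3 conditions did not overlap. *Ung* fell by 0.86 ± 0.14 with EPR (adjusted p = 0.00031), rose by 0.89 ± 0.13 with EPRSTOPE (adjusted p = 0.00014) and differed by −1.75 ± 0.14 between them (3.36-fold, adjusted p = 2.2e-06). For *Ung* and *Cdc6* an exact two-sided permutation test of mean CPM gave p = 0.1 in each comparison, the smallest value 3 libraries against 3 can give.

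The genes that rebuild chromatin behind the fork fell with EPR and were not called with EPRSTOPE. *Chaf1a* and *Chaf1b*, subunits of the histone chaperone CAF-1, had −1.13 and −1.10 with EPR and −0.23 and −0.45 with EPRSTOPE. The EPRSTOPE libraries of both genes lay below all mock libraries. *Chaf1b* passed the p threshold there (adjusted p = 0.0014, edgeR) and missed the fold threshold. It was called lower with EPRSTOPE with library totals alone and with protein-coding transcripts alone. *Uhrf1* (chr17:56303321-56323486), which guides DNA methylation to the new strand, was at 195, 200.1 and 205 CPM in mock, 98.8, 97.0 and 96.6 CPM in EPR and 203, 212 and 203 CPM in EPRSTOPE libraries. EPR libraries lay apart (−1.04 ± 0.05, adjusted p = 1.4e-08), and EPRSTOPE overlapped with mock (0.05 ± 0.05, adjusted p = 0.49). All 3 genes were lower in EPR than in EPRSTOPE cells.

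Genes of mitosis, which are expressed later in the cycle, were set beside the replication genes to see whether both move alike. With EPR 24 of the 25 mitosis genes fell (median −0.99), with EPRSTOPE 25 of 25 (median −2.09). Of all tested genes, 12.9% were called lower with EPR (median −0.01) and 12.4% with EPRSTOPE (median −0.04). In the direct comparison all 25 were higher in EPR than in EPRSTOPE cells, with a median of 1.09, where the replication genes had 28 of 46 lower. Of all tested genes, 6.86% were called higher and 6.35% lower there, with a median of 0.01. *Mki67*, the proliferation antigen Ki-67, was at 1045 ± 40.7 CPM in mock, 429.5 ± 20.2 CPM with EPR and 193 ± 6.64 CPM with EPRSTOPE (SD, n = 3). *Kif11*, a spindle motor (−1.23 with EPR and −2.77 with EPRSTOPE), *Cenpe*, a kinetochore motor (−1.26 and −2.55), and *Ttk*, a checkpoint kinase (−1.39 and −2.09), also fell in both. *Kif11* also lies on chromosome 19. The summed level of the mitosis list was 4207 ± 50.5 CPM in mock, 1984 ± 42.2 CPM with EPR and 946 ± 29.4 CPM with EPRSTOPE. The replication genes thus had 1.08 ± 0.0271 times the summed CPM of the mitosis genes in mock, 1.17 ± 0.0185 times with EPR and 3.87 ± 0.0802 times with EPRSTOPE.

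**Figure D4:**
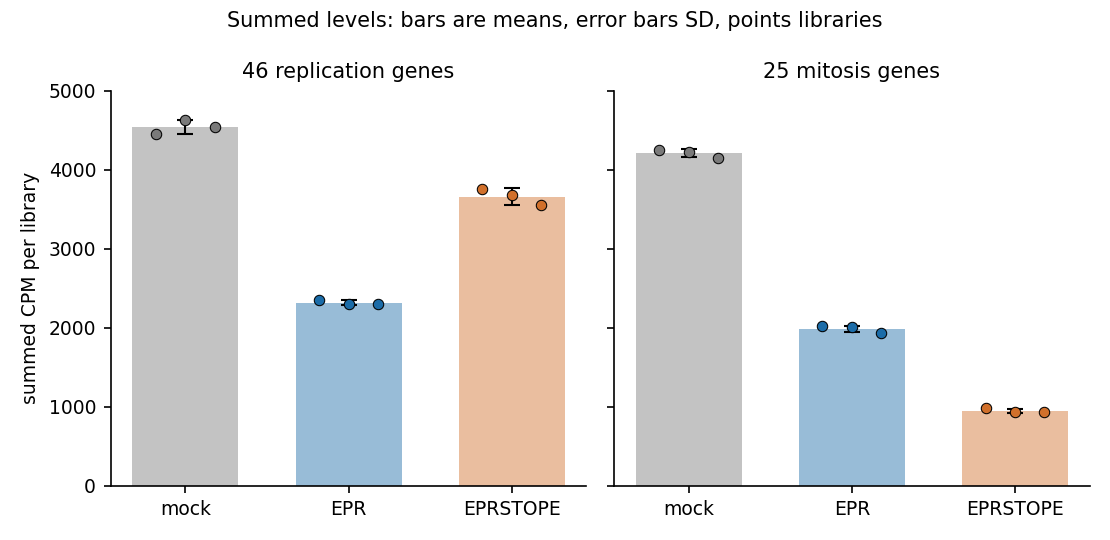
Summed TMM-normalized CPM of the 46 replication genes (left) and of 25 mitosis genes (right) per library, with bars for means and error bars for SD. EPR is lowest for the replication genes (2293 to 2352 CPM) and EPRSTOPE is lowest for the mitosis genes (927 to 980 CPM).

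**Figure D5:**
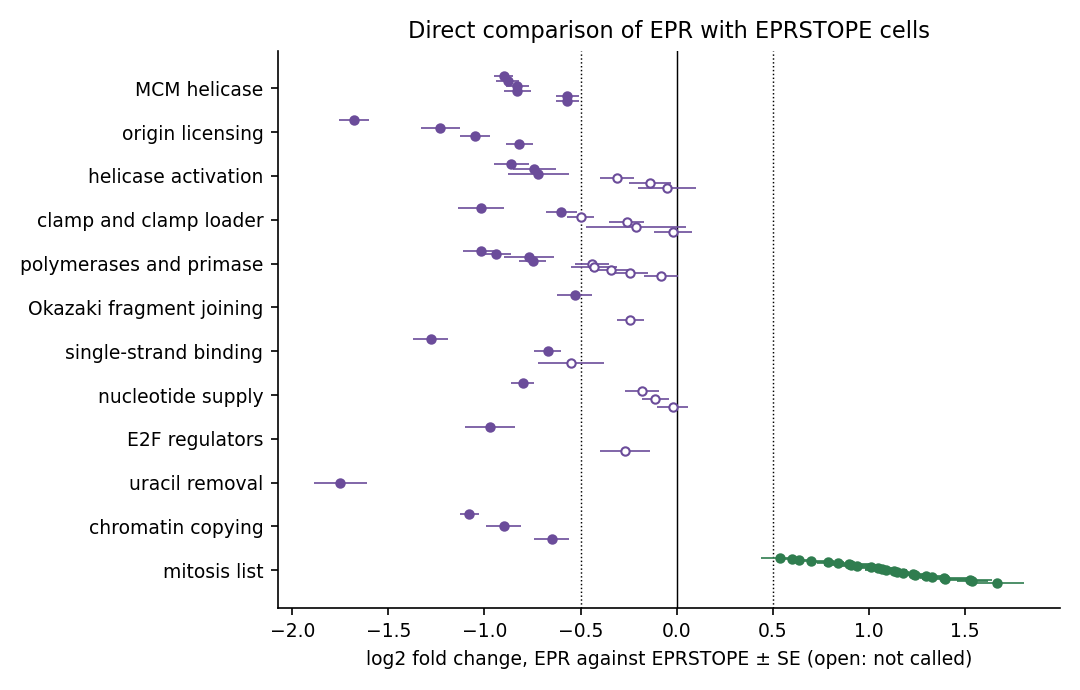
Log2 fold change of EPR against EPRSTOPE cells with its standard error for each of the 46 genes by role, and for the 25 mitosis genes in green. The 46 replication genes lie left of 0 and the 25 mitosis genes right of 0.5, and open symbols did not pass the test.

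Of the regulators of the G1/S transition, 31 of 32 were tested. With EPR 16 were lower (51.6%) and 4 higher (12.9%, against 15.2% of all tested genes), and with EPRSTOPE 13 were lower (41.9%) and 5 higher (16.1%, against 15.6%), so that the shares called higher were near those of all genes. *Cdkn1a*, the inhibitor p21 of cyclin-dependent kinases, rose from 7.29 ± 0.843 CPM in mock to 96.9 ± 5.47 CPM in EPR (3.71) and 79.8 ± 4.47 CPM in EPRSTOPE cells (3.44). *Ccne1* and *Ccne2*, the E cyclins of S-phase entry, rose with EPRSTOPE (1.48 and 0.69) and were not called with EPR (−0.02 and −0.39), and the direct differences of −1.50 and −1.09 passed the test. The D cyclins, named after their values were seen, went otherwise: *Ccnd2* rose with EPR (0.93), fell with EPRSTOPE (−1.09) and was higher in EPR than in EPRSTOPE cells (2.02), *Ccnd1* rose with EPR (0.55) and was not called with EPRSTOPE (0.36), and *Ccnd3* was not called in either (−0.24 in both). *Ccna2*, cyclin A of S and G2 phase, fell in both (−1.36 and −2.05). *Mybl2*, a transcription factor of the cycle, fell by 2.26 and 1.51. The inhibitor *Cdkn2a* fell by 2.38 and 3.34 and *Cdkn2d* by 1.24 and 2.23, whereas *Cdkn2b* rose with EPR (1.28) and was at 0.12 with EPRSTOPE.

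Further genes of the same processes were counted against the shares called over all tested genes, 12.9% lower and 15.2% higher with EPR and 12.4% lower and 15.6% higher with EPRSTOPE. Of 16 further genes of origin licensing and firing, 11 fell with EPR (68.8%) and 6 with EPRSTOPE (37.5%), and 0 rose in either by edgeR. *Mcm8* (−1.40 and −1.05), *Ticrr* (−1.37 and −0.58), needed for origin firing, and *Dbf4* (−1.05 and −1.24), the activator of the Cdc7 kinase, were lower in both. Of 20 further replisome and fork genes, 9 fell (45%) and 1 rose (5%) with EPR, and 4 fell and 4 rose (20% each) with EPRSTOPE, not far from the shares of all tested genes. *Wdhd1*, which couples the helicase to polymerase alpha, rose with EPRSTOPE (1.34) and was at 0.07 with EPR. It lies on chromosome 14, whose 490 tested genes had medians of 0.49 with EPR and 0.59 with EPRSTOPE. *Pold4*, a small subunit of polymerase delta, rose in both (1.09 and 1.11), and it lies on chromosome 19. *Clspn*, claspin of the fork checkpoint, fell with EPR (−1.49) and was not called with EPRSTOPE (−0.33), *Chtf18*, of an alternative clamp loader, fell in both (−1.42 and −1.21), and *Top2a*, which untangles DNA through G2 and mitosis, fell by 1.02 and 1.59 and was higher in EPR than in EPRSTOPE cells (0.57). Of 19 further genes of nucleotide supply, 10 fell with EPR (52.6%) and 6 with EPRSTOPE (31.6%), among them *Shmt1* (−1.26 and −1.29) and the dNTP hydrolase *Samhd1* (−1.61 and −1.05).

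Of 14 further genes of chromatin copying, 9 fell (64.3%) and 1 rose (7.14%) with EPR, and 2 fell (14.3%) and 1 rose with EPRSTOPE, where the share that fell was near the 12.4% of all tested genes. The histone chaperones *Nasp* (−1.25 and −0.70) and *Asf1b* (−1.06 and −0.52) fell in both, *Cdca7* fell with EPR (−1.11) and was at −0.03 with EPRSTOPE, and *Tonsl*, a reader of new histones, rose in both (0.64 and 0.98). *Tonsl* lies on chromosome 15, whose 525 tested genes had medians of 0.49 and 0.52. Of 16 genes of recombination and mismatch repair, 13 fell with EPR and 8 with EPRSTOPE. *Rad51ap1* (−1.89 and −0.63) and the nuclease *Exo1* (−1.61, and −0.48 without a call) were lower with EPR than with EPRSTOPE in the direct test, whereas *Fancd2* of the Fanconi anaemia pathway (−1.39 and −2.04) was higher with EPR (0.65) and its partner *Fanci* (−1.54 and −1.92) was not called there.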

How the data were processed

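RNA-Seq of 9 libraries was used, 3 per condition, each assigned by its title, with library numbers 203 to 211 as replicate names. The authors quantified reads with Kallisto 0.43.1 on Gencode vM15 transcripts and deposited, per transcript, estimated counts without normalization and TPM values scaled by effective length to 1000000 per library. Estimated counts were summed per symbol and rounded. A gene was tested if 3 or more libraries held 1 CPM or more of it, by edgeR 4.0.16 (quasi-likelihood, TMM, 1 factor of 3 levels, Benjamini-Hochberg over 15370 genes) in R 4.3.3, and called where the adjusted p was below 0.01 with a log2 fold change beyond 0.5. SE came from the F statistic. Alternatives used DESeq2 1.42.0, limma 3.58.1 with voom, other scalings, filters, counts and thresholds, and left out each library. On simulated counts of EPR against mock over 14908 genes, 200 of them changed by a log2 fold change of 1, edgeR recovered 178 and made 2 false calls. DESeq2 recovered 167 (3 false) and limma 171 (1 false). The simulated libraries were independent, with the same spread for every gene and equal numbers of genes raised and lowered. In the real data 12.9% of genes were called lower and 15.2% higher with EPR, so the simulation does not measure the error rate there.

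The 46 genes, the further lists and the markers were chosen with earlier results of these data known. Named genes were the 3 called members with the largest change per comparison, the member with the highest TPM of each role, up to 2 called genes per further list and direction in each comparison with mock, and *Cdkn1a*, *Ccne1*, *Ccne2*, *Ccna2* and *Mki67*. 1 further gene that the rule names is not reported here. Other members are given by their group or where they stood apart. Positions are from Gencode M21 (GRCm38), promoters from RefSeq (GRCm38.p6). Estimated counts share reads between similar transcripts, so values of single transcripts are less certain than those of genes. The strand setting of Kallisto is not given in the sources used here. All other steps ran in Python 3.11.15 (pandas 2.3.3, scipy 1.17.1, and matplotlib 3.10.9 for plots).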

Additional observations from a re-analysis of the deposited data

Results flagged for a closer look

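*Cdc6* and *Ung* were singled out because they were called lower than mock with EPR and higher than mock with EPRSTOPE, and because the difference between the overexpressing conditions passed edgeR's test on its own. The EPR against EPRSTOPE log2 fold change was −1.68 for *Cdc6* and −1.75 for *Ung*, in 3 of 3 libraries against 3 of 3 without overlap. Both calls against mock and the direct call held in all 20 alternatives for each gene that kept the thresholds.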

How the results depend on the processing

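Leaving out each library in turn gave medians of −1.0 to −0.95 for EPR, −0.37 to −0.33 for EPRSTOPE and −0.68 to −0.60 for EPR against EPRSTOPE, with 41 to 42, 15 to 17 and 27 to 30 genes called lower. With library totals alone, where the median of all genes was −0.09 with EPR and −0.16 with EPRSTOPE, the medians were −1.05 and −0.45. With protein-coding transcripts alone they were −1.01 and −0.41, with 2 genes called higher with EPR, since *Rfc3* reversed from −0.63 to 7.73. With counts scaled from TPM and length, 37 genes were called lower with EPR, 10 with EPRSTOPE and 22 in the direct comparison, whose median was −0.74. Upper quartile factors gave a direct median of −0.62. Less the median of each gene's chromosome, an alternative chosen after seeing the data, the EPRSTOPE median was −0.26. At a log2 fold change beyond 1, 21 genes were lower with EPR, 2 lower and 1 higher with EPRSTOPE and 8 lower in the direct comparison, by the construction of that threshold. At an adjusted p under 0.05 with no fold threshold, 28 were lower with EPRSTOPE. Other causes were not tested. Of 1020 values of 17 single genes under alternatives, 1006 kept direction and side of the threshold, 11 lost the call, 2 gained one and 1 reversed. No paired analysis was possible because the library numbers are not shared between conditions.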

Other observations

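Transcript models of *Rfc3*, an RFC subunit, took different shares of its counts. Its single protein-coding transcript had 1.5, 0 and 0 estimated counts in mock libraries, 163.5, 88.5 and 67.3 in EPR libraries and 173.6, 225.5 and 26.8 in EPRSTOPE libraries. In mock cells most of its counts lay on the retained-intron model Rfc3-205, with 102.8, 163.4 and 208.8 counts, against 0, 14.4 and 58.0 in EPR and 3.0, 16.4 and 126.9 in EPRSTOPE libraries. Models of one gene share sequence, and the assignment varied widely within conditions. For *Lig1* protein-coding transcripts held 95.2, 80.5 and 93.5% of counts in mock, 55.1, 49.0 and 75.2% in EPR and 94.2, 87.0 and 91.0% in EPRSTOPE libraries. Over the pooled counts of the 46 genes that share was 86.0% ± 1.59 in mock cells, 86.6% ± 0.896 with EPR and 88.1% ± 2.36 with EPRSTOPE (SD, n = 3). By gene, it was over 90% in every library for 16 genes and under 50% in at least 1 library for 7. Among these 7 were *Rfc2* (13.6 to 24.0%), *Gins2* (0 to 79.8%) and *Tyms* (24.8 to 57.0%).

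The letters TTTGAA on either strand, a form of the cell cycle genes homology region, were in 15 of 22 mitosis promoters (68.2%), 6 of 39 promoters of the 46 genes (15.4%) and 20.2% of all genes with an entry, and CCAAT was in 17 of 22 (77.3%), 24 of 39 (61.5%) and 41.1%. An E2F-type word was in 1 of 22 mitosis promoters (4.55%).

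Ranked by TPM, the order of the 46 genes in mock cells began with *Pcna*, *Rrm2*, *Rrm1* and *Mcm7*, each apart from the next in all libraries. Of 45 pairs of neighbours in the order, 6 did not overlap in mock cells, 2 with EPR and 1 with EPRSTOPE, so most of the order is not resolved by these libraries.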
